A study of Mus musculus with 10 samples.

Results

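Tubulins are the building blocks of microtubules. The 10 genes described here were chosen by name, as the α-tubulin genes Tuba1a, Tuba1b, Tuba1c, Tuba4a and Tuba8 and the β-tubulin genes Tubb2a, Tubb2b, Tubb4b, Tubb5 and Tubb6, out of 38922 genes in the files. Each was found by its mouse Ensembl identifier and its symbol in the GENCODE mouse release M21. They were measured by RNA-seq in livers of 6 weeks old wild-type males of the inbred strain C57BL/6N. A group of 5 mice was injected intraperitoneally with 0.5 µg/g body weight of CD95-Ab, an antibody that activates the death receptor CD95 (Fas) and causes acute liver failure, and the control group of 5 mice received the same volume of saline. All mice were sacrificed 6 h after the injection, and each gave its own library of whole liver RNA.

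An α- and a β-tubulin protein fold together with the help of chaperones into a dimer, and dimers polymerise into the hollow tubes along which motor proteins carry vesicles and organelles. In hepatocytes, the main cells of the liver, microtubules serve the secretion of plasma proteins and transport towards the bile canaliculus. Mammals have several genes for each kind of tubulin, called isotypes, whose proteins differ mostly in their tails. The level of tubulin mRNA is also known to depend on the protein: when free dimers are abundant, the start of a newly made tubulin is recognised by the factor TTC5 as it leaves the ribosome, and the mRNA is degraded.

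The files held between 25965699 and 62097636 counts per mouse, with a median of 30497435. Values are given as CPM, counts scaled to a total of 1000000 that was adjusted by the TMM method, which limits the weight of a few abundant genes; 3 counts corresponded to between 0.0483 and 0.116 CPM before that adjustment. The test was the quasi-likelihood test of edgeR over 13719 genes that passed its filter on low counts, and FDR is its p-value adjusted by the Benjamini-Hochberg method. A gene was called higher or lower at an FDR of 0.05 or less, a fold change is CD95-Ab over saline, and SE is the standard error of its log2 value. A principal component analysis separated the groups on the first component (67.7% of the variance), whereas saline mouse 5 and CD95-Ab mouse 4 stood apart from the other mice on the second (9.8%).

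The start of the coding sequence is shown because it encodes the peptide through which tubulin mRNA is regulated. The first 30 coding bases are given 5′ to 3′ from GENCODE M21 (GRCm38), with the first 4 codons (12 bases) in capitals. On the minus strand, the start codons lie at chr15:98953451-98953453 (Tuba1a), chr15:98934333-98934335 (Tuba1b), chr1:75219193-75219195 (Tuba4a), chr13:34077927-34077929 (Tubb2a), chr13:34130231-34130233 (Tubb2b), chr2:25224588-25224590 (Tubb4b) and chr17:35838051-35838053 (Tubb5). On the plus strand they lie at chr15:99030422-99030424 (Tuba1c) and chr6:121210834-121210836 (Tuba8).
Tuba1a: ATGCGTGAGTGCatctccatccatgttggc
Tuba1b: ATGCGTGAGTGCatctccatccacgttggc
Tuba1c: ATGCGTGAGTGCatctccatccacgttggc
Tuba4a: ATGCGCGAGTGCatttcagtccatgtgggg
Tuba8: ATGAGGGAATGCatatcggtccatgtgggt
Tubb2a: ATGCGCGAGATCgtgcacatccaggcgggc
Tubb2b: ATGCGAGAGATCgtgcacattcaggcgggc
Tubb4b: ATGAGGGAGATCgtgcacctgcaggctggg
Tubb5: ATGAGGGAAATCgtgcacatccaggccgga
Among these 9 genes, 7 different starts of 12 bases were found, and Tuba1a, Tuba1b and Tuba1c shared theirs. The encoded amino acids differed less: all α-tubulin starts shown read MREC and all β-tubulin starts shown read MREI. In the α-tubulin genes the first coding exon ends after 3 coding bases, the start codon alone, whereas in the β-tubulin genes it holds 57. The coding sequences were 1335 to 1356 bases long. Identity was 51.0% to 55.4% between an α- and a β-tubulin gene, against 78.8% to 98.3% among α- and 80.2% to 96.5% among β-tubulin genes. The closest α pairs were Tuba1a and Tuba1b with 98.3%, Tuba1b and Tuba1c with 97.9%, and Tuba1a and Tuba1c with 97.1%, and the closest β pair was Tubb2a and Tubb2b with 96.5%.

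Such identity bears on the measurement, since a read that fits several genes was shared out among them. The share of 100-base stretches of a gene's transcripts that also occur in another gene was 65.85% for Tuba1a, 65.18% for Tuba1b and 46.0% for Tuba1c. It was 36.93% for Tubb2a and 26.01% for Tubb2b, mostly with each other, and 0% for Tubb5 and Tubb6. Tuba4a shared 32.37%, mostly with Stk16, which overlaps it, and the kit did not mark the strand. Tubb4b shared 22.04%, mostly with the pseudogene Tubb4b-ps1, which had 0 counts in every mouse, and Tuba8 shared 12.52%. The single values of Tuba1a, Tuba1b and Tuba1c are therefore uncertain, whereas their sum is less so. These 3 genes lie within 106686 bases of chromosome 15, and Tubb2a and Tubb2b within 56193 bases of chromosome 13. The other members stand alone on chromosomes 1 (Tuba4a), 2 (Tubb4b), 6 (Tuba8), 17 (Tubb5) and 18 (Tubb6).

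After CD95-Ab, 7 of the 9 tested tubulin genes were higher and none was lower, whereas 25.4% of all tested genes were called higher and 22.0% lower (47.3% in either direction). The family was chosen with earlier results of these data known, so its contrast with all tested genes is not independent of them. Among the β-tubulins, Tubb6 and Tubb2a rose about 8.03- and 7.96-fold, and among the α-tubulins Tuba1a rose 4.14-fold and Tuba1c 3.11-fold. The ubiquitous isotypes Tuba1b, Tubb4b and Tubb5 rose 2.25-, 2.10- and 1.59-fold. Tuba4a and Tuba8 were not called, and Tubb2b had too few counts to be tested. In TMM-adjusted CPM, every CD95-Ab mouse was above every saline mouse in each of the 7 genes called higher. The same held for 18.6% of all tested genes (all below, 14.7%). The median log2 fold change was 1.17 over the 9 tested tubulin genes and 0.01 over all tested genes. Of the 9, Tubb6, Tubb2a and Tuba1a passed both the FDR threshold and a log2 fold change of at least 2, as did 6.59% of all tested genes, and none lay at -2 or less, where 1.11% did.

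**Figure D1:**
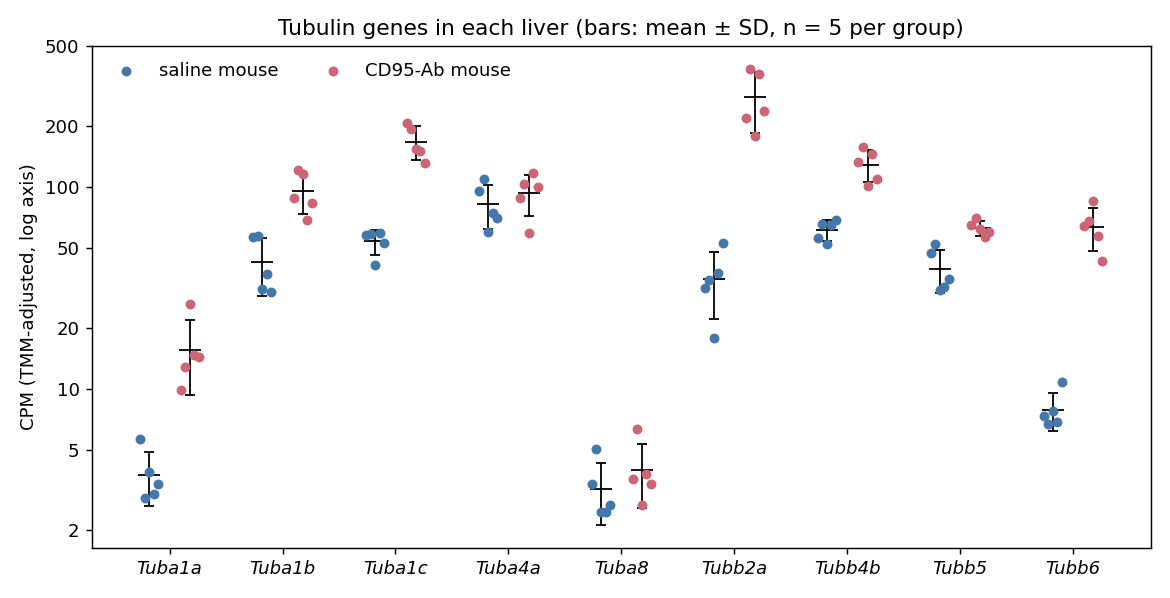
CPM (log axis) of the 9 tested tubulin genes in each of 5 saline (blue) and 5 CD95-Ab (red) mice; points are mice and bars are the mean ± SD of a group. The groups are separate in 7 genes and overlap in Tuba4a and Tuba8.

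Tubb2a (ENSMUSG00000058672, chr13:34074274-34078007, minus strand) encodes a class II β-tubulin that is abundant in neurons. It was measured at 31.5, 34.7, 17.8, 37.6 and 52.7 CPM in saline mice 1 to 5 and at 220.4, 385, 178, 365 and 239 CPM in CD95-Ab mice 1 to 5. The lowest CD95-Ab mouse, mouse 3, was above the highest saline mouse. With means of 34.9 ± 12.6 and 278 ± 91.8 CPM (SD, n = 5), Tubb2a rose by 2.99 on the log2 scale (SE 0.30, 95% interval 2.33 to 3.66, edgeR FDR 1.36e-05).

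Tubb6 (ENSMUSG00000001473, chr18:67390717-67402749, plus strand) encodes the class V β-tubulin. Its levels were 7.32, 6.67, 7.78, 6.89 and 10.8 CPM in saline mice and 64.2, 68.1, 84.8, 57.3 and 43.1 CPM in CD95-Ab mice. The groups were far apart, with mouse 3 highest and mouse 5 lowest after CD95-Ab. Tubb6 had the lowest FDR among the tubulin genes (log2 fold change 3.01, SE 0.20, 95% interval 2.57 to 3.44, edgeR FDR 9.35e-07), with means of 7.88 ± 1.67 and 63.5 ± 15.2 CPM (SD, n = 5).

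Tubb4b (ENSMUSG00000036752, chr2:25222160-25224702, minus strand), a class IV β-tubulin found in most tissues and in cilia, was at 56.0, 65.6, 52.0, 65.0 and 68.5 CPM after saline. After CD95-Ab it was at 133, 157, 101, 146 and 109.8 CPM. The spread was narrow and every CD95-Ab mouse was higher. Tubb4b thus rose by 1.07 on the log2 scale (SE 0.15, 95% interval 0.75 to 1.39, edgeR FDR 1.2e-04).

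Tubb5 (ENSMUSG00000001525, chr17:35833921-35838306, minus strand), the class I β-tubulin of nearly all cells, changed least among the genes called. Saline mice had 47.0, 52.1, 30.8, 31.9 and 35.0 CPM, and CD95-Ab mice had 65.0, 70.4, 61.7, 56.7 and 59.8 CPM. The highest saline mouse was close to the lowest CD95-Ab mouse. The rise was 0.67 on the log2 scale (SE 0.16, 95% interval 0.33 to 1.02, edgeR FDR 0.0045).

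Tubb2b (ENSMUSG00000045136, chr13:34126748-34130466, minus strand), the close relative of Tubb2a in the developing brain, was near the limit of detection. It had 3, 1, 0, 0 and 1 counts in saline mice and 16, 14, 7, 4 and 15 counts in CD95-Ab mice, in all 5 against 56. The CD95-Ab mice were all above the saline mice, with means of 0.0238 ± 0.0291 and 0.346 ± 0.139 CPM (SD, n = 5). The gene did not pass the filter on low counts. Without that filter edgeR gave a log2 fold change of 3.56 (SE 0.64, FDR 0.000524). How many of its counts are reads of Tubb2a, with which it shares transcript sequence, was not tested.

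Tuba1a (ENSMUSG00000072235, chr15:98949837-98953703, minus strand), best known as the main α-tubulin of developing neurons, was low in liver. Saline mice had 5.65, 2.88, 3.86, 3.0 and 3.37 CPM, and CD95-Ab mice had 9.82, 12.9, 26.3, 14.7 and 14.4 CPM. All CD95-Ab mice were above all saline mice, and mouse 3 had by far the highest value. The log2 fold change was 2.05 (SE 0.27, 95% interval 1.45 to 2.65, edgeR FDR 9.6e-05) and thus lay at the threshold of 2.

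Tuba1b (ENSMUSG00000023004, chr15:98931425-98934565, minus strand), a ubiquitous α-tubulin, was at 56.5, 57.5, 31.2, 37.0 and 30.2 CPM in saline mice. In CD95-Ab mice it was at 88.5, 121, 116, 68.7 and 83.1 CPM. Both groups were spread widely but did not overlap in CPM. The log2 fold change was 1.17 (SE 0.23, 95% interval 0.67 to 1.67, edgeR FDR 0.00137).

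Tuba1c (ENSMUSG00000043091, chr15:99029891-99038110, plus strand) is a further close copy of the same α-tubulin. It had 58.1, 58.8, 41.0, 59.2 and 52.7 CPM after saline and 208, 194, 154, 151 and 131 CPM after CD95-Ab. The lowest CD95-Ab mouse was above the highest saline mouse by a wide margin. Tuba1c rose by 1.64 on the log2 scale (SE 0.16, 95% interval 1.29 to 1.99, edgeR FDR 1.07e-05). The sum of Tuba1a, Tuba1b and Tuba1c, which depends less on how reads were shared out, was 100.2 ± 19.6 CPM in saline mice and 279 ± 44.6 CPM in CD95-Ab mice (SD, n = 5), 2.78-fold higher.

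Tuba4a (ENSMUSG00000026202, chr1:75214228-75219865, minus strand) encodes an α-tubulin that lacks the terminal tyrosine found in most α-tubulins. Its values of 95.6, 110.1, 59.8, 74.7 and 70.1 CPM in saline mice overlapped with 88.2, 103, 59.5, 117 and 99.5 CPM in CD95-Ab mice. Mouse 3 was the lowest of each group. The log2 fold change was 0.19 and its interval ran from -0.26 to 0.64 (SE 0.21, edgeR FDR 0.473), so that a change of the size of that of Tubb4b lay outside it.

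Tuba8 (ENSMUSG00000030137, chr6:121210696-121226854, plus strand), a divergent α-tubulin known from muscle and testis, was at 3.39, 5.01, 2.45, 2.46 and 2.67 CPM in saline mice. It was at 3.59, 6.31, 2.67, 3.79 and 3.39 CPM in CD95-Ab mice, which overlapped with the saline mice. Mouse 2 was the highest of each group. The interval of the log2 fold change, from -0.28 to 0.89, was wide (log2 fold change 0.31, SE 0.27, edgeR FDR 0.372), and includes a rise of the size of that of Tubb5.

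**Figure D2:**
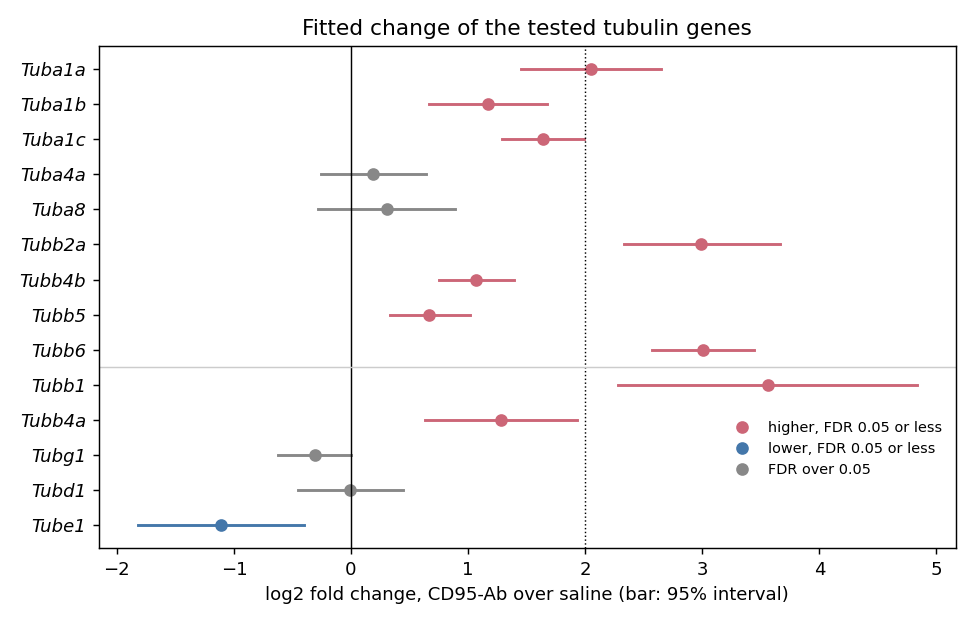
Log2 fold change (CD95-Ab over saline) with 95% interval from edgeR for 9 tested members and 5 other tubulin genes tested. The dotted line marks the threshold of 2. The intervals of 7 members lie above 0, led by Tubb6 at 3.01 and Tubb2a at 2.99.

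Summed over members, α-tubulin counts were 138 to 234 CPM in saline mice and 332 to 438 CPM in CD95-Ab mice, 2.03-fold higher by the means. β-tubulin counts were 108 to 167 CPM and 426 to 681 CPM, 3.71-fold higher. To compare genes with each other, the length-scaled FPKM values deposited by the authors (fragments scaled to transcript length and to the total of the mouse) were used. In FPKM, which lack the TMM adjustment, the groups overlapped for Tuba1b (highest saline mouse 39.45, lowest CD95-Ab mouse 34.83). They also did for Tubb5 (23.64 and 18.89). The ratio of summed β- to α-tubulin FPKM was 0.684, 0.729, 0.847, 0.895 and 1.19 in saline mice and 1.38, 1.79, 1.31, 2.06 and 1.56 in CD95-Ab mice. Thus α-tubulin mRNA was more abundant in 4 of 5 saline mice and β-tubulin mRNA in all CD95-Ab mice, and the groups did not overlap.

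The isotype with the highest level changed as well. In saline mice, the mean FPKM was highest for Tuba4a (43.2 ± 14.6, SD, n = 5) and Tubb4b (41.4 ± 5.30), which overlapped, followed by Tuba1c (29.2), Tuba1b (26.8), Tubb2a (23.2) and Tubb5 (16.2). Tubb6 (4.72), Tuba1a (2.46), Tuba8 (1.56) and Tubb2b (0.016) were at the low end. Of the neighbours in this order, ranges were separate between Tubb4b and Tuba1c, Tubb5 and Tubb6, Tubb6 and Tuba1a, and Tuba8 and Tubb2b. After CD95-Ab Tubb2a was at the top with 176 ± 54.9 FPKM (SD, n = 5), followed by Tuba1c (86.1), Tubb4b (82.6), Tuba1b (55.7), Tuba4a (45.7), Tubb6 (36.3), Tubb5 (24.3), Tuba1a (9.35), Tuba8 (1.79) and Tubb2b (0.19). Tubb2a exceeded Tuba1c in every CD95-Ab mouse although their ranges overlapped, and separate ranges among neighbours were found from Tubb5 downwards.

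As a share of all β-tubulin FPKM, Tubb2a was 25.8%, 25.1%, 18.7%, 29.4% and 34.7% in saline mice and 49.0%, 59.6%, 45.4%, 61.1% and 56.3% in CD95-Ab mice. Tubb2a thus took the place of Tubb4b as the leading β-tubulin transcript. The share of Tubb4b, which had itself risen, went from 48.8% ± 3.86 to 26.0% ± 2.05 and that of Tubb5 from 18.8% ± 4.35 to 7.80% ± 1.59 (SD, n = 5). The share of Tubb6 was 5.66% ± 1.21 and 11.9% ± 4.51. In α-tubulin, Tuba4a had 41.0%, 44.3%, 40.8%, 40.1% and 41.9% of the FPKM in saline mice, nearly the same in all, and 20.8%, 21.9%, 15.1%, 31.0% and 27.9% in CD95-Ab mice. Tuba1c went from 29.1% ± 3.83 to 42.8% ± 4.77 and was the leading α-tubulin transcript in each CD95-Ab mouse. The groups did not overlap for the shares of these 6 genes, whereas those of Tuba1a, Tuba1b, Tuba8 and Tubb2b overlapped. Shares of one sum are not independent of each other and were not tested.

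**Figure D3:**
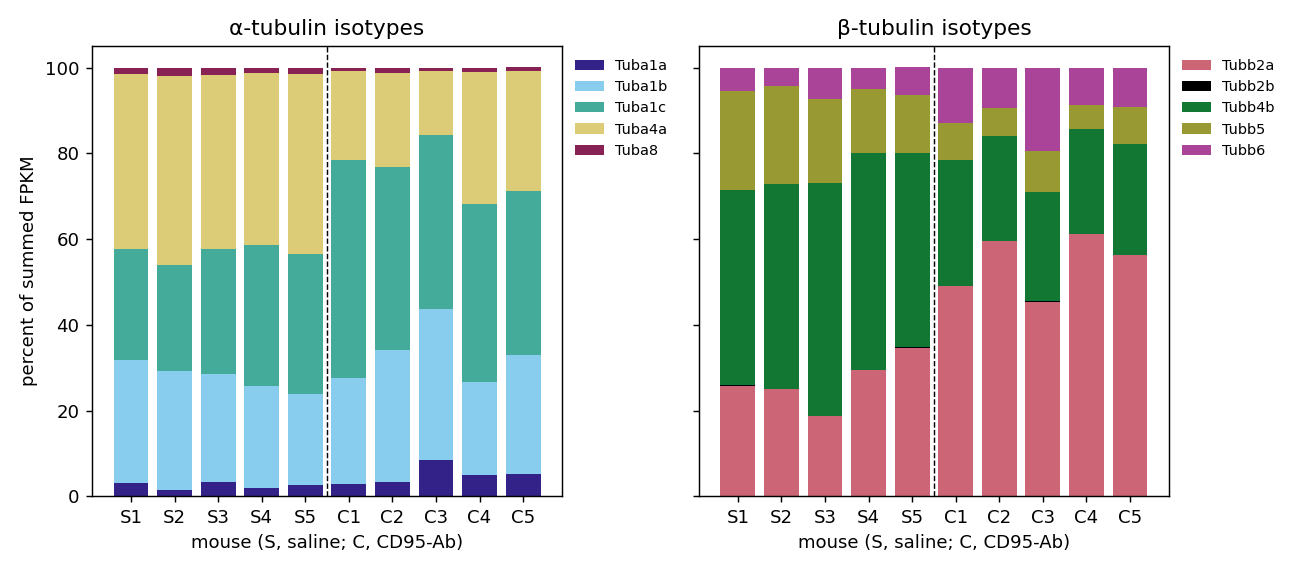
Share of summed FPKM (percent) taken by each α- and each β-tubulin gene in the 10 mice. Tubb2a holds 18.7% to 34.7% of β-tubulin in saline mice and 45.4% to 61.1% in CD95-Ab mice.

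Which mouse of a group was highest differed from gene to gene. CD95-Ab mouse 2 had the highest value of its group in 5 of 9 tested members and the lowest in none. CD95-Ab mouse 3 was highest for Tuba1a and Tubb6 and lowest for Tubb2a, Tubb4b, Tuba4a and Tuba8. On the log2 scale it deviated from its group mean by 0.83 for Tuba1a and 0.45 for Tubb6, and by -0.57 for Tubb2a and -0.62 for Tuba4a. Saline mouse 3 was lowest in 6 of 9 members. The highest mouse of a group had 1.24 times the value of the lowest for Tubb5 after CD95-Ab and 2.97 times for Tubb2a after saline, the extremes among tested members.

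**Figure D4:**
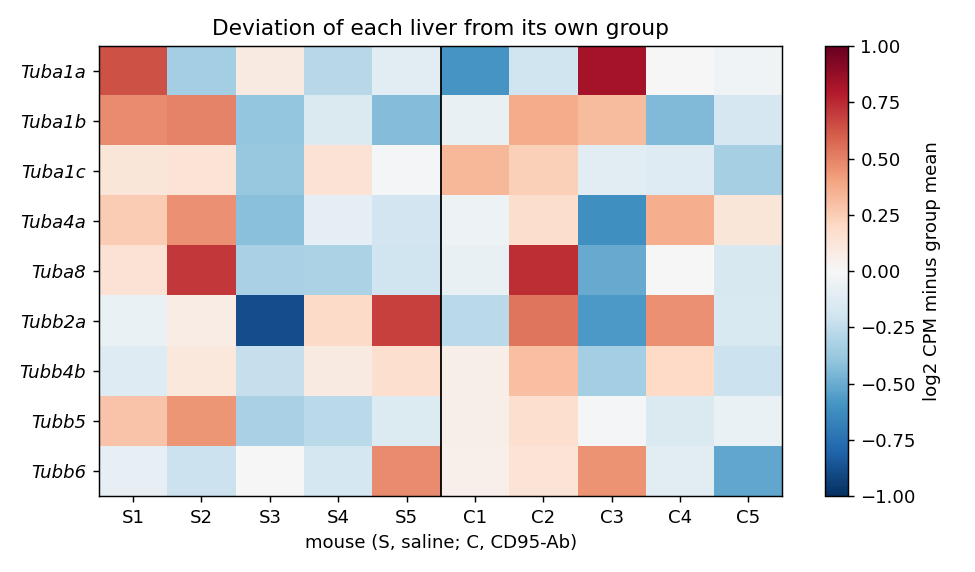
Deviation of each mouse from its group mean (log2 CPM) for the 9 tested members, saline and CD95-Ab mice side by side. CD95-Ab mouse 3 lies above its group for Tuba1a and Tubb6 and below it for Tubb2a and Tuba4a.

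Whole liver RNA holds several cell types, and in such bulk samples fewer cells of a type and less RNA per cell cannot be told apart. Hepatocyte markers such as albumin were by far the most abundant of the cell type markers, with all 12 tested, 1 higher and 5 lower, and with a summed level of 112811 to 139460.4 CPM in saline mice and 56874 to 97958 CPM in CD95-Ab mice. Neutrophil markers (7 of 7 tested higher) summed to 16.4 to 63.6 CPM in saline and 1283 to 2809.6 CPM in CD95-Ab mice, and platelet markers (7 of 9 higher) to 12.2 to 24.7 and 206 to 296 CPM. Both sums rest largely on 1 gene after CD95-Ab, the secreted protein Lcn2 with 85.9% of the neutrophil sum and Thbs1 with 80.8% of the platelet sum. Without them the sums were 4.43 to 11.2 and 107 to 435 CPM for neutrophil, and 9.78 to 22.6 and 27.9 to 62.3 CPM for platelet markers. Erythroid markers (8 of 10 higher, 1 lower) summed to 159 to 341 and 1084 to 34059 CPM, and macrophage markers (4 of 12 higher) to 215 to 675 and 617 to 1056 CPM. Endothelial markers (9 of 12 higher) were at 108 to 230.2 and 305 to 546 CPM, stellate cell markers (7 of 12 higher, 1 lower) at 159.5 to 259 and 359 to 709 CPM, cholangiocyte markers (6 of 9 higher, 1 lower) at 35.9 to 50 and 56.2 to 199.5 CPM, and lymphocyte markers (9 of 11 higher) at 2.37 to 8.68 and 13.5 to 20.8 CPM. Of 12 proliferation genes, 0 were called by edgeR, and their sums overlapped (10.1 to 43.2 and 11.1 to 47.9 CPM). No marker in the files was at 0 in every mouse. Of all tested genes, 25.4% were called higher and 22.0% lower. Some markers passed the filter on low counts through the CD95-Ab mice alone, so the counts of markers called higher are set in part by that filter. Gp9 was such a platelet marker, with 0 to 0.148 CPM in saline mice and 0.481 to 1.91 CPM in CD95-Ab mice. CD95-Ab mouse 3, in which Tuba1a and Tubb6 were highest, also had the highest sums of its group for neutrophil, platelet, erythroid, endothelial, stellate, cholangiocyte, hepatocyte and proliferation genes. It did not for macrophage and lymphocyte markers. Thus 7 of the 10 sums were higher in every CD95-Ab mouse than in any saline mouse, as was that of the tubulin genes. The macrophage and proliferation sums overlapped and the hepatocyte sum was lower. Without Dcn, the stellate sum overlapped, at 82.7 to 158 CPM in saline and 135 to 411 CPM in CD95-Ab mice. So did the hepatocyte sum without albumin (Alb), at 36136 to 41394 and 26369.8 to 36979 CPM. The part of these cell types in the tubulin result was not tested.

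Promoter sequences are shown for the leading β- and α-tubulin genes after CD95-Ab, Tubb2a and Tuba1c, and for Tubb4b, the leading β-tubulin gene after saline. The 250 bases before the annotated start of transcription come from RefSeq (GRCm38.p6), 5′ to 3′ on the strand of the gene, at chr13:34078009-34078258 (Tubb2a, minus), chr15:99029641-99029890 (Tuba1c, plus) and chr2:25224703-25224952 (Tubb4b, minus). Capitals mark matches to the motifs named in the next paragraph.
Tubb2a: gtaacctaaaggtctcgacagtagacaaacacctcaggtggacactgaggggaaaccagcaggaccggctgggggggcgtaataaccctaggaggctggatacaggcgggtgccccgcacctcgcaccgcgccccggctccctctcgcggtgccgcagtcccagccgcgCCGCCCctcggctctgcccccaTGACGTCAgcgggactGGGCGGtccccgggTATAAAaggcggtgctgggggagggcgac
Tuba1c: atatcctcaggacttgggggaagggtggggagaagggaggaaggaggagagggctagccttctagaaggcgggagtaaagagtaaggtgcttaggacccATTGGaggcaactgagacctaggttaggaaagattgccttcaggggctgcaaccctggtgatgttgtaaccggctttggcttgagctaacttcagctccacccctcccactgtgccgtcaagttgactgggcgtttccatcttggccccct
Tubb4b: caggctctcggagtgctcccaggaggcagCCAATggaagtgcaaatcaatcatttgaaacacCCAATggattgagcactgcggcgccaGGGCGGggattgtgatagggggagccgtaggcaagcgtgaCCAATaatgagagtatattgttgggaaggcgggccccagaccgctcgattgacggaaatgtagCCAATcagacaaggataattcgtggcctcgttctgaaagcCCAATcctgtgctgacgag

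Motifs were searched as fixed letters on both strands in 8 members and in the RefSeq table of 32851 promoters. Tubb6 and Tubb2b were not searched, so the counts of members below cover only those 8. The TATA box letters TATAAA were found in Tubb2a alone, ending at base -24 from the start, and in 12.37% of all promoters. TGACGTCA, the letters bound by CREB and ATF factors, were also found in Tubb2a alone, ending at base -52, and in 1.55% of all promoters. CCAAT was found in 4 members, with 5 matches in Tubb4b, and in 33.85% of all promoters. GGGCGG, the letters bound by SP1, were found in 5 members and in 32.74% of all promoters. CACGTG, the E-box, was found in Tuba8 and Tubb5 and in 6.02% of all promoters. The AP-1 letters TGAGTCA (4.46% of all promoters), the CArG box of SRF (1.47%) and the NF-kB site (3.90%) were found in 0 of the 8 members searched. No matches overlapped in the 3 windows shown. These are matches of letters and do not show that a factor was bound.

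Other tubulin genes were measured from a list of 10, of which 5 passed the filter, which asked for 0.328 CPM in at least 5 mice. All 9 tested members reached that level in every mouse, whereas of these 5 genes only Tubg1 and Tubd1 did. Tubb1, the β-tubulin of platelets and megakaryocytes, had 2, 6, 0, 3 and 16 counts in saline mice and 18, 57, 53, 48 and 76 counts in CD95-Ab mice, without overlap in CPM. It rose from 0.127 ± 0.116 to 1.62 ± 0.606 CPM (log2 fold change 3.56, SE 0.59, edgeR FDR 4.29e-04, n = 5). It was itself one of the platelet markers counted above, and it passed the filter through the CD95-Ab mice alone, since 0 saline mice reached the level. Tubb4a, a β-tubulin of oligodendrocytes, rose from 0.302 ± 0.0368 to 0.745 ± 0.269 CPM (log2 fold change 1.28, SE 0.30, edgeR FDR 0.00403, n = 5), with 8 to 15 counts in saline mice, of which 1 reached the level of the filter. With at least 10 counts required in every mouse neither gene was tested, and on the log2(FPKM + 1) scale of limma, which shrinks changes of low genes, the values were 0.95 for Tubb1 and 0.21 for Tubb4a. Tubg1, the γ-tubulin that starts new microtubules, was at 17.4 ± 3.32 and 14.0 ± 1.31 CPM and was not called (log2 fold change -0.31, SE 0.14, edgeR FDR 0.0881). Of the tubulins of centrioles, Tubd1 was at 1.89 and 1.87 CPM (edgeR FDR 0.979), and Tube1 fell from 0.875 ± 0.333 to 0.401 ± 0.118 CPM with overlapping groups (log2 fold change -1.11, SE 0.32, edgeR FDR 0.0144). Tubal3 had 0 counts in every mouse, Tuba3a and Tuba3b had 1 count each in CD95-Ab mouse 2, and Tubb3, the neuronal β-tubulin, had at most 9 counts in a mouse.

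Genes whose products fold or modify tubulin, or bind or move along microtubules, were called in both directions. Of 115 tested genes in 7 lists, which include the 5 other tubulins above, 24 were higher, 17 were lower and 74 were not called. The list medians of the log2 fold change lay between -0.34 and 0.40, beside 1.17 for the tested members. With upper quartile scaling factors the split was 22 higher and 27 lower, and with limma on FPKM 19 higher and 23 lower. Of the 115, 6 reached the level of the filter in every CD95-Ab mouse but not in every saline mouse, and 5 of them were called higher. Another 4 reached it in every saline mouse but not in every CD95-Ab mouse, and 2 of them were called lower. A gene that passes mainly through the group where it is high is in part selected for a difference, so these calls are not independent of the filter. These lists have no test of their own, and for all tested genes the shares called were 25.4% higher and 22.0% lower.

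**Figure D5:**
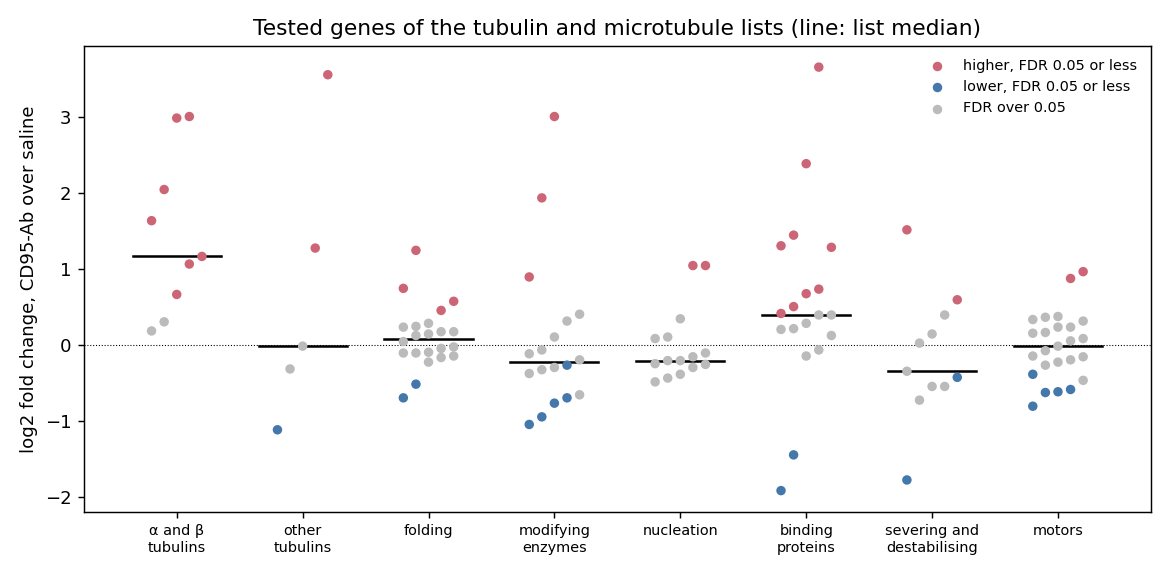
Log2 fold change (CD95-Ab over saline) of each tested gene in the tubulin family and 7 companion lists, with the list median; points are genes. The median of the tested members is 1.17 and the companion medians, among them that of the other tubulins, lie between -0.34 and 0.40.

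Folding factors, which bring α- and β-tubulin together, were mostly not called: 4 of 22 were higher and 2 lower, with a median log2 fold change of 0.09. Without scaling factors or with limma on FPKM 2 were higher, and without scaling factors or without saline mouse 1 only 1 was lower. Pdcl3, a helper of the chaperonin CCT, rose from 10.5 ± 0.963 to 24.8 ± 5.46 CPM (SD, n = 5; log2 fold change 1.25, edgeR FDR 5.11e-05). Pfdn4, a prefoldin subunit that hands tubulin to CCT, rose by 0.75 on the log2 scale (edgeR FDR 0.00573). Tcp1, a CCT subunit, was at 101 ± 3.03 and 114 ± 9.57 CPM and was not called (edgeR FDR 0.156). The small GTPase Arl2, which acts with the tubulin cofactors, fell by 0.69 and Tbcel, a relative of cofactor E, fell by 0.51 on the log2 scale (edgeR FDR 0.0108 and 0.0205). Ttc5, the factor that recognises newly made tubulin, was at 5.44 ± 0.703 and 4.76 ± 0.384 CPM (log2 fold change -0.19, 95% interval -0.49 to 0.10, edgeR FDR 0.261).

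The list for the modification of tubulin, with enzymes and factors that act with them or on newly made tubulin (Svbp, Ttc5 and Scaper), had 3 of 18 tested genes higher and 5 lower (median -0.23). With at least 10 counts in every mouse 1 was higher, and 5 were without saline mouse 5. With a replicate block (mouse number as a further term), or without CD95-Ab mouse 2 or saline mouse 2, 3 were lower. Vash1, which removes the terminal tyrosine of α-tubulin, rose from 0.233 ± 0.0969 to 1.94 ± 0.951 CPM (SD, n = 5; log2 fold change 3.01, edgeR FDR 1.21e-04), with 1 saline mouse at the level of the filter. Its partner Svbp was at 4.22 and 5.65 CPM and was not called (edgeR FDR 0.115). The glutamylase Ttll7 rose from 0.570 to 2.19 CPM (log2 fold change 1.94, edgeR FDR 8.9e-04). The α-tubulin acetyltransferase Atat1 fell from 6.59 ± 0.675 to 3.44 ± 0.963 CPM (log2 fold change -0.94, edgeR FDR 0.00174), and the carboxypeptidase Agbl5, which trims glutamate chains, fell from 4.11 to 1.99 CPM (log2 fold change -1.04, edgeR FDR 0.00111).

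Proteins that bind microtubules had the most calls, with 9 of 19 tested higher and 2 lower (median 0.40). Map1b, a stabilising protein of neurons, rose from 0.262 ± 0.101 to 3.48 ± 1.72 CPM (SD, n = 5; log2 fold change 3.66, edgeR FDR 3.03e-05), with 2 saline mice at the level of the filter, and Mid1, a microtubule-bound ubiquitin ligase, from 5.03 ± 1.87 to 26.6 ± 5.24 CPM (log2 fold change 2.39, edgeR FDR 1.18e-05). Mapt, which encodes tau, fell from 2.25 ± 0.478 to 0.599 ± 0.227 CPM (log2 fold change -1.91, edgeR FDR 2.84e-04), and Camsap3, which anchors minus ends in epithelial cells, fell from 11.3 ± 1.6 to 4.17 ± 0.939 CPM (log2 fold change -1.44, edgeR FDR 4.86e-05). The groups did not overlap in any of these 4 genes.

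Of 15 genes for nucleation and the centrosome, 2 were higher and 0 lower (median -0.20), namely the centrosomal proteins Tacc1 and Tacc2, each with a log2 fold change of 1.05 (edgeR FDR 0.00126 and 0.00772). The count of 0 lower in this list did not hold under some settings, with 4 lower under upper quartile factors, 3 without both mice that stood apart, 2 under limma on FPKM, without scaling factors or without CD95-Ab mouse 4 or 5, and 1 under DESeq2 or without saline mouse 5. The list of severing and destabilising factors also holds Arhgef2, which does not itself sever or shorten microtubules. Of its 11 tested genes, 2 were higher and 2 lower (median -0.34). Only 1 was lower with the replicate block or without CD95-Ab mouse 2, saline mouse 2 or saline mouse 3. Arhgef2, a microtubule-bound activator of RhoA, rose by 1.52 and the depolymerising kinesin Kif2a by 0.60 on the log2 scale (edgeR FDR 1.83e-04 and 0.00244). The severing enzymes Fign and Spast fell by 1.77 and 0.42 on the log2 scale (edgeR FDR 1.89e-04 and 0.024), and only for Spast did the groups of these 4 genes overlap. Of 25 tested motor genes, 2 were higher and 5 lower (median -0.01), but 5 were higher without CD95-Ab mouse 4, without both mice that stood apart, or with at least 10 counts in every mouse. Kif5b, the ubiquitous kinesin heavy chain, rose from 39.2 ± 7.91 to 76.8 ± 12.7 CPM (SD, n = 5; edgeR FDR 5e-04) and the dynein light chain Dynll1 from 8.64 to 15.9 CPM (edgeR FDR 6.48e-04). The related light chain Dynll2 fell from 107 ± 15.3 to 61.5 ± 6.12 CPM (edgeR FDR 4.08e-04), and the kinesin light chain Klc4 from 48.1 to 31.3 CPM (edgeR FDR 0.00658).

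Genes whose pattern over the 10 mice was most like the summed tubulin CPM were sought among tested genes outside the tubulin lists, by the root mean square difference of log2 CPM after centring each on its own mean. The 5 nearest were Tmem39a, Tfe3, Nfxl1, Cep192 and Psd4, with differences of 0.150, 0.151, 0.168, 0.176 and 0.18 on the log2 scale, against a median of 0.854 over 13705 genes. Their log2 fold changes were 1.58, 1.4, 1.39, 1.5 and 1.55, so that much of the likeness is the difference between groups.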

How the data were processed

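RNA from 10 livers, 5 per group, was prepared with TruSeq reagents from 500 ng of total RNA and sequenced as pairs of 100 bp on an Illumina HiSeq (model 1000 in the labels). The labels call the 10 samples biological replicates, and groups and mouse numbers come from their titles. The authors used RSEM 1.2.19 and deposited an expected count per gene, whole in these files and not normalized, and an FPKM value. A read that fits several paralogs is divided among them by RSEM. The annotation and genome build used for this are not given in the sources used here, since the paper names a human release whereas the identifiers are mouse. Of 38922 identifiers, 37606 had a symbol in GENCODE M21, which also gave positions and coding sequences.

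Counts were filtered by filterByExpr (minimum count 10), scaled by TMM and tested in edgeR 4.0.16 (R 4.3.3) with a quasi-likelihood test with group as the only term. The thresholds were an FDR of 0.05 and, where stated, a log2 fold change of 2. Standard errors were derived from the F statistic. Sequences, shares and sums were computed with Python 3.11.15, pandas 2.3.3 and Biopython 1.88. FPKM values deposited by the authors served only for levels and shares and for an alternative test with limma 3.58.1, and DESeq2 1.42.0 was another alternative. The edgeR step was tested on simulated data. Within groups, counts of replicate pairs differed by more than sampling noise (chi-square per degree of freedom 42.4 to 554, 20 pairs), so none was a duplicate.

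The tubulin genes, the companion lists (folding, modification, nucleation, binding, destabilising, motors, other tubulins) and the marker lists were chosen with earlier results of these data known. All members and tested other tubulins were named, as were, in each other list, the 2 largest and 2 smallest log2 fold changes among genes with an FDR of 0.05 or less and a mean of at least 1 CPM. Tcp1, Ttc5 and Svbp were named for their role and outside this rule.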

Additional observations from a re-analysis of the deposited data

Results flagged for a closer look

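Dixon's test for a sample far from the others of its group was applied to 38 groups of 5 mice, with a critical ratio of 0.71, and chance gives about 1 in 20. The CPM of Tubb6 in saline mice had a highest value of 10.8 in saline mouse 5, whose gap to the next mouse was 0.73 of the range of the group. This mouse also stood apart on the second principal component. The CPM of Tubb1 in CD95-Ab mice had a lowest value of 0.578 in CD95-Ab mouse 1 with 18 counts, and the gap was 0.721 of the range.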

How the results depend on the processing

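All 9 tested tubulin genes kept their direction and their side of the FDR threshold in each of 22 alternatives: DESeq2, limma on FPKM, the likelihood ratio test, other filters and scaling factors, an FDR of 0.01, a replicate block, each mouse left out in turn and, chosen after seeing the data, the fit without saline mouse 5 and CD95-Ab mouse 4. Tubb5 came closest to the threshold, with an FDR of 0.0474 without scaling factors. With DESeq2 or without a filter Tubb2b was called as well, 8 genes in all. The count of tubulin genes at a log2 fold change of 2 or more, 3 as reported, was 2 without CD95-Ab mouse 3 or without saline mouse 2, 4 or 5, since Tuba1a lies at that threshold. It was also 2 with limma on FPKM, without scaling factors or with upper quartile factors, and 4 with DESeq2 or no filter. Companion genes called higher ranged from 22 to 28 and lower from 14 to 21 with each mouse left out. Companion genes called lower were 27 with upper quartile factors and 9 at an FDR of 0.01.

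Shares computed from CPM instead of FPKM gave 44.1% for Tuba4a and 43.1% for Tubb4b in saline mice, and 27.6% in saline and 12.1% in CD95-Ab mice for Tubb5. The log2 fold change of Tubd1, reported as -0.01, turned to 0.02 with at least 10 counts in every mouse and to 0.00 with the likelihood ratio test, and ranged from -0.12 to 0.06 with each mouse left out, above 0 without CD95-Ab mouse 2 (0.03), 3 (0.06) or 4 (0.03) or saline mouse 4 (0.06). Tubg1 passed the threshold in 5 alternatives, and Tube1 did not at an FDR of 0.01. The cause of these differences was not tested. Depth limits Tubb2b, Tubb1 and Tubb4a, which had few counts. Mouse numbers did not pair the samples (correlation of deviations between same-numbered mice 0.257, 0.087, 0.13, -0.017 and -0.274), and not every mouse correlated best with its own number. With the replicate block, 7 tubulin genes were higher and 0 lower, 3 reached a log2 fold change of 2, and 23 companion genes were higher and 14 lower.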
